A study of Mus musculus with 16 samples.

Results

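The Notch receptors, ligands and effectors were followed in mouse neural cells exposed to strobilurin fungicides. The 10 genes are the receptors Notch1, Notch2 and Notch3, the ligands Jag1, Jag2 and Dll1, the DNA-binding partner Rbpj, and the effectors Hes1, Hey1 and Heyl, out of 54658 genes in the count tables. They were chosen by symbol after Notch3 had been seen to rise with pyraclostrobin at 300 and 1000 nM. Values of the 10 genes with pyraclostrobin are therefore given as a description, without a test. Only differences between the other groups are tested for them. The fits behind these tests included the pyraclostrobin libraries, so the spread of each gene was estimated with their values too.

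Notch receptors are transmembrane proteins that are activated by ligands of the Jagged and Delta-like families on neighbouring cells. After ligand binding the receptor is cut by an ADAM protease and then by the γ-secretase complex, and its intracellular domain enters the nucleus, where it joins RBPJ and a Mastermind protein to turn on genes such as Hes1, Hey1 and Heyl. In the absence of the intracellular domain RBPJ holds corepressors on the same genes. In neural progenitors the pathway is known for keeping cells undifferentiated, and Notch3 is best known in the mural cells of blood vessels.

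The cells were C17.2α, a line of mouse cerebellar origin that stably overexpresses the thyroid hormone receptor TRα1. All libraries, controls included, came from these cells in medium with charcoal-stripped serum and without added T3, 24 h after the compound or its solvent DMSO. There were 2 DMSO libraries and 1 library for every exposure. The exposures were picoxystrobin, pyraclostrobin or trifloxystrobin, each at 30, 100, 300 and 1000 nM, or azoxystrobin, for which the labels give 100 and 1000 nM. Strobilurins block the mitochondrial respiratory chain of fungi at complex III. Picoxystrobin and azoxystrobin carry a methoxyacrylate group, pyraclostrobin a methoxycarbamate and trifloxystrobin an oximinoacetate. One engineered line is a limited model of neural tissue, and the line's receptor overexpression was shared by every group.

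The counts of azoxystrobin at 100 nM were identical to those of DMSO replicate 2 in all 54658 genes, so this library was left out and 15 libraries remained. The column headers of the 2 DMSO tables number them in the opposite order to the labels, and the replicate numbers used here are those of the labels. The libraries held 12292390 to 18188099 counts on genes. Values are in CPM, which give a gene's count relative to the total of its library, with TMM scaling for differences in RNA composition. Thra, the gene of the overexpressed receptor, was at 52 to 85.7 CPM. Of 5 neural progenitor markers, 4 had a mean over 1 CPM, and Vim, Nes, Sox2, Msi1 and Fabp7 summed to 2730 to 3430 CPM. Most of this sum was Vim, at 2845 CPM on average. Nes averaged 165 CPM, Sox2 39.7, Msi1 6.01 and Fabp7 0.981 CPM. The neuronal markers Rbfox3 and Dcx were at 0 and 0.00847 CPM on average, and 1 of 5 neuronal markers (Map2) exceeded 1 CPM. All 4 oligodendrocyte markers exceeded 1 CPM, with Sox10 at 215 CPM on average, which the label of neural cells does not mention. Astrocyte and microglial markers each had 1 of 4 over 1 CPM, S100b and P2ry12, and no endothelial marker of 4 did. Of 5 mural cell markers, Pdgfrb and Acta2 exceeded 1 CPM, while Rgs5, Tagln and Cspg4 stayed below it. The sum of the mural markers was 295 to 318 CPM in DMSO, 275 with azoxystrobin, 233 to 395 with picoxystrobin, 221 to 340 with pyraclostrobin and 241 to 388 with trifloxystrobin. Pdgfrb was at 211 and 208 CPM in DMSO and 146 and 115.5 CPM with pyraclostrobin at 300 and 1000 nM. Acta2 was at 82.8 and 108 CPM in DMSO and 192 and 124 CPM in those pyraclostrobin libraries. At 1000 nM they were at 223 and 171 CPM with picoxystrobin and 204 and 182 CPM with trifloxystrobin. The part of the mural markers in the values of Notch3 was not tested. In bulk RNA, fewer cells of a type and less RNA per cell cannot be told apart.

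The promoters of the 3 receptors are shown because the transcripts of Notch2 and Notch3 moved in opposite directions at the same pyraclostrobin concentrations. Each window runs from 250 bases before to 50 bases after the RefSeq start site in GRCm38.p6, 5′ to 3′ on the gene's strand. Notch1 is at chr2:26503773-26504072 (minus strand), Notch2 at chr3:98013288-98013587 (plus strand) and Notch3 at chr17:32166841-32167140 (minus strand). Capitals mark matches on either strand to CACNAG, the N box that Hes proteins bind.
Notch1: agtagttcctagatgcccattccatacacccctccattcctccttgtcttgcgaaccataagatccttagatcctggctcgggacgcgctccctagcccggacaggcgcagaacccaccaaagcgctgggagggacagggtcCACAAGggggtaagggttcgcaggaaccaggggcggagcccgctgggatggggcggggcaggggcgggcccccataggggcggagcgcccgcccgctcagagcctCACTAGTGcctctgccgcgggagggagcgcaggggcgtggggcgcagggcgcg
Notch2: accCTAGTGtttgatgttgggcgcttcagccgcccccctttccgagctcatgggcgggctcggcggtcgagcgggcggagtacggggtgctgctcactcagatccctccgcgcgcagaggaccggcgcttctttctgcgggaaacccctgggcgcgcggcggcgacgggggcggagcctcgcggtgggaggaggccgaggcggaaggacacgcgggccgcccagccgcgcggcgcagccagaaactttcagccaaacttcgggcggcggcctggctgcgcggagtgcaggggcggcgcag
Notch3: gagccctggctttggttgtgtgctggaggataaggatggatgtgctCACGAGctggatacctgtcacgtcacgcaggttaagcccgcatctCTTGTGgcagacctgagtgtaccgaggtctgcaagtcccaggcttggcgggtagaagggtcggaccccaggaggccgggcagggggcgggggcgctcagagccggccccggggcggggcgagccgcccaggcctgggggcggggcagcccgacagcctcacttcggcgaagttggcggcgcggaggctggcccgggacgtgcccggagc
The Notch1 window held 3 N box matches, of which the last 2 overlap on opposite strands across 8 bases that begin 3 bases before the start site. Notch2 held 1 match, 247 bases before the start site, and Notch3 held 2, at 204 and 159 bases before it. An N box match occurred in 42.5% of all 32851 mouse windows of this length, so its presence does not set the receptors apart. The core letters bound by RBPJ, TGGGAA on either strand, were found in none of the 3 receptor windows and in 25.6% of all windows. The E box CACGTG, another target of Hes and Hey proteins, was also found in none of the 3 and in 7.2% of all windows. RefSeq windows were matched for 7 of the 10 genes. Rbpj, which has 2 windows, held the RBPJ core letters 149 and 65 bases before the start site of its upstream window. These matches are letters in a window and were not tied to binding in these cells.

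Levels were compared between genes per kb of the longest annotated transcript. Hes1 was the highest, at 37.8 ± 5.5 CPM per kb (SD, n = 15 libraries), followed by Notch2 at 25.1 ± 5.07 and Rbpj at 12.1 ± 0.801 CPM per kb. The ranges of Hes1 and Notch2 overlapped between libraries (27.2 to 46.7 and 13.2 to 33.1 CPM per kb), and the top of Rbpj, 13.8 CPM per kb, reached the bottom of Notch2. Jag1, at 7.04 ± 0.788 CPM per kb, was the leading ligand, Notch1 had 4.23 ± 1.09 and Notch3 3.05 ± 1.81 CPM per kb. The ranges of Jag1 (6.04 to 8.4) and Notch1 (2.26 to 6.09) met at their edges, and those of Notch1 and Notch3 (1.45 to 7.18) overlapped widely. Dll1, Hey1, Heyl and Jag2 were low, at 0.983, 0.747, 0.406 and 0.0854 CPM per kb, with ranges that overlapped between the first 3, while Jag2 did not exceed 0.161 CPM per kb. C17.2α cells therefore carried mainly Notch2 among receptors, Jag1 among ligands and Hes1 among effectors. Across libraries Notch3 varied most of the 6 genes above 10 CPM, with a coefficient of variation of 59.3%. The coefficient was 25.7% for Notch1, 20.2% for Notch2, 14.5% for Hes1, 11.2% for Jag1 and 6.61% for Rbpj. The genes were chosen after Notch3 had been seen to rise with pyraclostrobin, and those libraries are among the 15. The first rank of Notch3 was therefore partly set by that choice and is a description only.

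Notch3 (chromosome 17, 32120820 to 32166852, minus strand, GRCm38) was at 23.2 and 15.7 CPM in the 2 DMSO libraries, which already differed by a factor of 1.47, and at 11.6 CPM with azoxystrobin at 1000 nM. With pyraclostrobin it was at 16.8 CPM at 30 nM, 25.2 at 100 nM, 50.3 at 300 nM and 57.6 at 1000 nM. With trifloxystrobin it was at 15.5, 18.3, 19.1 and 23.6 CPM at 30, 100, 300 and 1000 nM. The 2 upper pyraclostrobin libraries were above all 13 other libraries, and the trifloxystrobin libraries stayed close to the range of the DMSO libraries. Picoxystrobin gave 14.7, 14.8 and 14.6 CPM at 30, 100 and 300 nM and 45.5 CPM at 1000 nM. Picoxystrobin at 1000 nM was therefore the only library outside the upper pyraclostrobin pair to exceed 25.2 CPM, and it stood 3.1-fold above the mean of its 3 lower concentrations (14.7 ± 0.1 CPM, SD, n = 3). The mean of the 2 upper pyraclostrobin libraries was 53.9 CPM, which is 2.56-fold that of the 2 lower ones and 2.77-fold that of DMSO. These folds were the basis on which the genes were chosen.

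The counts behind Notch3 ranged from 158 to 1007 per library. The exact Poisson 95% intervals were 54.1 to 61.2 CPM for pyraclostrobin at 1000 nM, 42.2 to 49 CPM for picoxystrobin at 1000 nM, and 20.9 to 25.7 and 13.9 to 17.8 CPM for the DMSO libraries. These intervals cover counting error only, and those of the 2 DMSO libraries did not overlap. The overlapping antisense gene Gm17276 had at most 0.0762 CPM in any library.

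**Figure D1:**
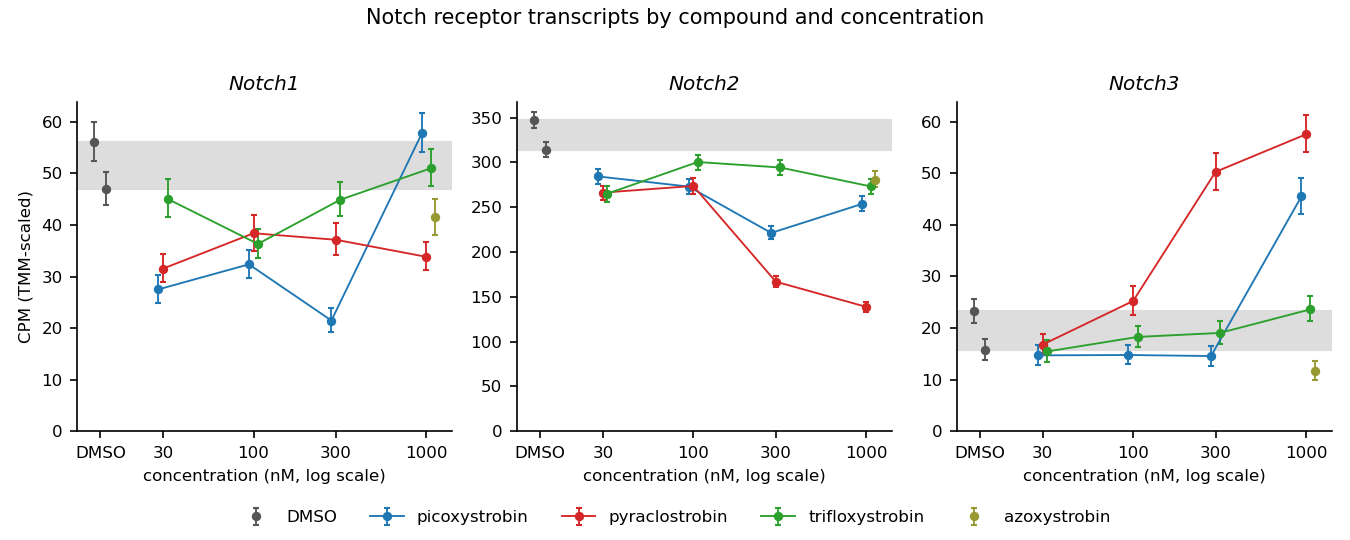
CPM of Notch1, Notch2 and Notch3 (vertical axes from 0) in each library against concentration in nM (log scale), with DMSO libraries at the left. Points are single libraries, bars are Poisson 95% intervals of the counts, and the grey band spans the 2 DMSO libraries. Pyraclostrobin at 300 and 1000 nM lies at 50.3 and 57.6 CPM for Notch3 and at 167 and 139 CPM for Notch2, and picoxystrobin rises to 45.5 CPM for Notch3 at 1000 nM only.

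Notch2 (chromosome 3, 98013527 to 98150361, plus strand) moved the other way. It was at 347 and 314 CPM in DMSO and 281 CPM with azoxystrobin at 1000 nM. Pyraclostrobin gave 266 and 274 CPM at 30 and 100 nM, then 167 and 139 CPM at 300 and 1000 nM. The upper pair was below every one of the 13 other libraries, whose lowest value was 221 CPM with picoxystrobin at 300 nM. Its mean of 153 CPM was 46.2% of DMSO and 0.566 times that of the lower pair. Picoxystrobin gave 284, 273, 221 and 254 CPM and trifloxystrobin 265, 300.4, 294 and 273 CPM from 30 to 1000 nM. All 13 exposed libraries were below both DMSO libraries, including azoxystrobin, so the DMSO pair was the high extreme for this gene.

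Notch1 (chromosome 2, 26457903 to 26516663, minus strand) did not follow either pattern. It was at 56.1 and 47 CPM in DMSO and 41.5 CPM with azoxystrobin at 1000 nM. Pyraclostrobin gave 31.6, 38.4, 37.1 and 33.8 CPM from 30 to 1000 nM, all below DMSO, with a ratio of the upper to the lower pair of 1.01. Trifloxystrobin gave 45.1, 36.3, 44.9 and 51 CPM. With picoxystrobin it was at 27.5, 32.4 and 21.5 CPM at 30, 100 and 300 nM, a mean of 27.1 ± 5.46 CPM (SD, n = 3) that is 52.7% of DMSO, and at 57.8 CPM at 1000 nM. The picoxystrobin series thus held both the lowest and the highest Notch1 value of the 15 libraries.

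The same picoxystrobin libraries stood apart across the transcriptome. The correlation across genes between the log2 difference from DMSO and the GC content of the transcript was -0.634, -0.704 and -0.738 for picoxystrobin at 30, 100 and 300 nM, against 0.202 at 1000 nM and -0.39 to -0.0635 in the other exposed libraries. Genes within a library are not independent, so no p is given. The transcripts of Notch1, Notch2 and Notch3 contain 57.1, 53.6 and 59.6% GC. With a per-library trend on GC content and length as an offset, the picoxystrobin difference from DMSO became -0.26 for Notch1 and 0.52 for Notch3 on the log2 scale, against -0.57 and 0.20 without it. For Notch2 the difference without the offset was -0.36, and over all alternatives run it ranged from -0.43 to -0.090.

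The share of each receptor in the sum of the 3 was computed per kb within each library, which does not depend on scaling between libraries. Notch3 made up 6.92 and 5.33% of receptor transcript in DMSO and 4.44% with azoxystrobin. With pyraclostrobin its share was 6.81, 9.47, 24.1 and 30% from 30 to 1000 nM, while the share of Notch2 was 82.4, 78.4, 60.9 and 55.2%. With picoxystrobin the share of Notch3 was 5.77, 5.9 and 7.23% up to 300 nM and 15.8% at 1000 nM, and with trifloxystrobin it was 6.04, 6.57, 6.77 and 8.58%. The share of Notch3 was thus highest in the same 3 libraries as its CPM. The summed receptor level was 41.9 and 36.9 CPM per kb in DMSO and 26.1 and 24 CPM per kb with pyraclostrobin at 300 and 1000 nM. Azoxystrobin, picoxystrobin and trifloxystrobin lay between 25.2 and 35.9 CPM per kb, so they too were below both DMSO libraries. Picoxystrobin held both ends of this range, 25.2 at 300 nM and 35.9 at 1000 nM, where the share of Notch3 was 7.23 and 15.8%. A low receptor total was thus not confined to pyraclostrobin and did not go with high Notch3 in picoxystrobin.

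At matched concentrations the compounds were set side by side. The ratio of pyraclostrobin to trifloxystrobin for Notch3 was 1.09, 1.38, 2.64 and 2.44 from 30 to 1000 nM, and for Notch2 it was 1, 0.911, 0.567 and 0.508. The ratio of pyraclostrobin to picoxystrobin for Notch3 was 1.14, 1.71, 3.45 and 1.26. At 300 nM pyraclostrobin and picoxystrobin therefore differed most, and at 1000 nM, where picoxystrobin was also high, the gap was narrower. For Notch2 the ratio of pyraclostrobin to picoxystrobin was 0.937, 1, 0.754 and 0.548. At 1000 nM picoxystrobin had high Notch3 without the low Notch2 seen with pyraclostrobin. Azoxystrobin had 1 distinct library, at 1000 nM, and was not part of the tests between compounds.

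Among ligands, Jag1 (chromosome 2, 137081456 to 137116644, minus strand), a Jagged ligand, varied little between libraries. It was at 42.8 and 45.5 CPM in DMSO, 37.1 with azoxystrobin, 34.4 to 38.6 CPM with pyraclostrobin, 33.9 to 41 CPM with picoxystrobin and 37.7 to 47.1 CPM with trifloxystrobin. The pyraclostrobin and picoxystrobin libraries were all below both DMSO libraries, and 1 of the 4 trifloxystrobin libraries was. The ratio of the upper to the lower pyraclostrobin pair was 0.964.

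Dll1 (chromosome 17, 15367354 to 15376872, minus strand), a Delta-like ligand, was low, with 29 to 71 counts per library, and was left out of the test because its mean of 3.52 CPM is under the minimum of 10 CPM. It was at 3.24 and 3.88 CPM in DMSO and 4.62 CPM with azoxystrobin. Pyraclostrobin gave 3.4 and 3.68 CPM at 30 and 100 nM and 2.21 and 1.66 CPM at 300 and 1000 nM. Both upper values were below all 13 other libraries, the lowest of which had 2.99 CPM, and their mean was 0.547 times that of the lower pair. The Poisson 95% intervals were 1.54 to 3.07 CPM at 300 nM and 1.11 to 2.38 CPM at 1000 nM. Both overlap the interval of the lowest other library, 2.25 to 3.9 CPM. Picoxystrobin gave 3.19 to 4.48 CPM and trifloxystrobin 2.99 to 4.29 CPM. Jag2 (chromosome 12, 112907819 to 112929776, minus strand) had 1 to 13 counts per library and 0.0734 to 0.821 CPM. Its highest values were pyraclostrobin at 300 nM and picoxystrobin at 1000 nM, at 13 and 11 counts. The intervals of both, 0.437 to 1.4 and 0.349 to 1.25 CPM, overlap those of DMSO. The interval of azoxystrobin at 1000 nM, from 1 count, ended at 0.409 CPM, below that of pyraclostrobin at 300 nM. Overlap of intervals is not a test, and Jag2 was not tested.

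Rbpj (chromosome 5, 53466152 to 53657362, plus strand), through which all the receptors act on DNA, was the steadiest gene. It was at 65 and 62.1 CPM in DMSO, 69.9 with azoxystrobin, and 66.3 to 71.1, 60.4 to 67.4 and 62.4 to 75.8 CPM with picoxystrobin, pyraclostrobin and trifloxystrobin. Its lowest values, 60.4 and 61.3 CPM, were the upper pyraclostrobin pair, within 1.07-fold of the lower pair. Reads may be shared with a near-identical copy. The pseudogene Rbpj-ps3 had 17.2 to 25.9 CPM, so the level of Rbpj is uncertain. The pseudogene Rbpj-ps1 had 0 CPM, and Rbpjl, a separate related gene, had at most 0.533 CPM.

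Hes1 (chromosome 16, 30064384 to 30067796, plus strand) encodes a repressor that is the classical Notch target in neural progenitors. It was at 45.9 and 47.3 CPM in DMSO and 39.9 CPM with azoxystrobin. Picoxystrobin gave 55.4, 56.7, 65.7 and 61.1 CPM, pyraclostrobin 64.5, 68.5, 53.1 and 57.3 CPM and trifloxystrobin 47.1, 54.5, 54 and 61.9 CPM from 30 to 1000 nM. All libraries of picoxystrobin and pyraclostrobin and 3 of 4 of trifloxystrobin were above both DMSO libraries. The highest Hes1 value was pyraclostrobin at 100 nM, where Notch3 was at 25.2 CPM, and the upper pair of pyraclostrobin, where Notch3 was highest, was at 0.831 times the lower pair. Hey1 (chromosome 3, 8663359 to 8667256, minus strand), a related repressor, had 9 to 38 counts per library and 0.61 to 2.51 CPM. It was at 1.89 and 1.82 CPM in DMSO and at 2.04, 2.21, 1.96 and 1.43 CPM with pyraclostrobin. Its 2 lowest libraries were picoxystrobin at 30 and 1000 nM, at 0.61 and 0.953 CPM. Heyl (chromosome 4, 123233556 to 123249875, plus strand) was at 2.81 and 1.53 CPM in DMSO and 1.26 to 1.73 CPM with pyraclostrobin. The DMSO libraries of Heyl differed by a factor of 1.84, and the other libraries, 1.29 to 2.58 CPM, lay within or near that range. None of the 3 effectors was highest in the 2 libraries with the highest Notch3.

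**Figure D2:**
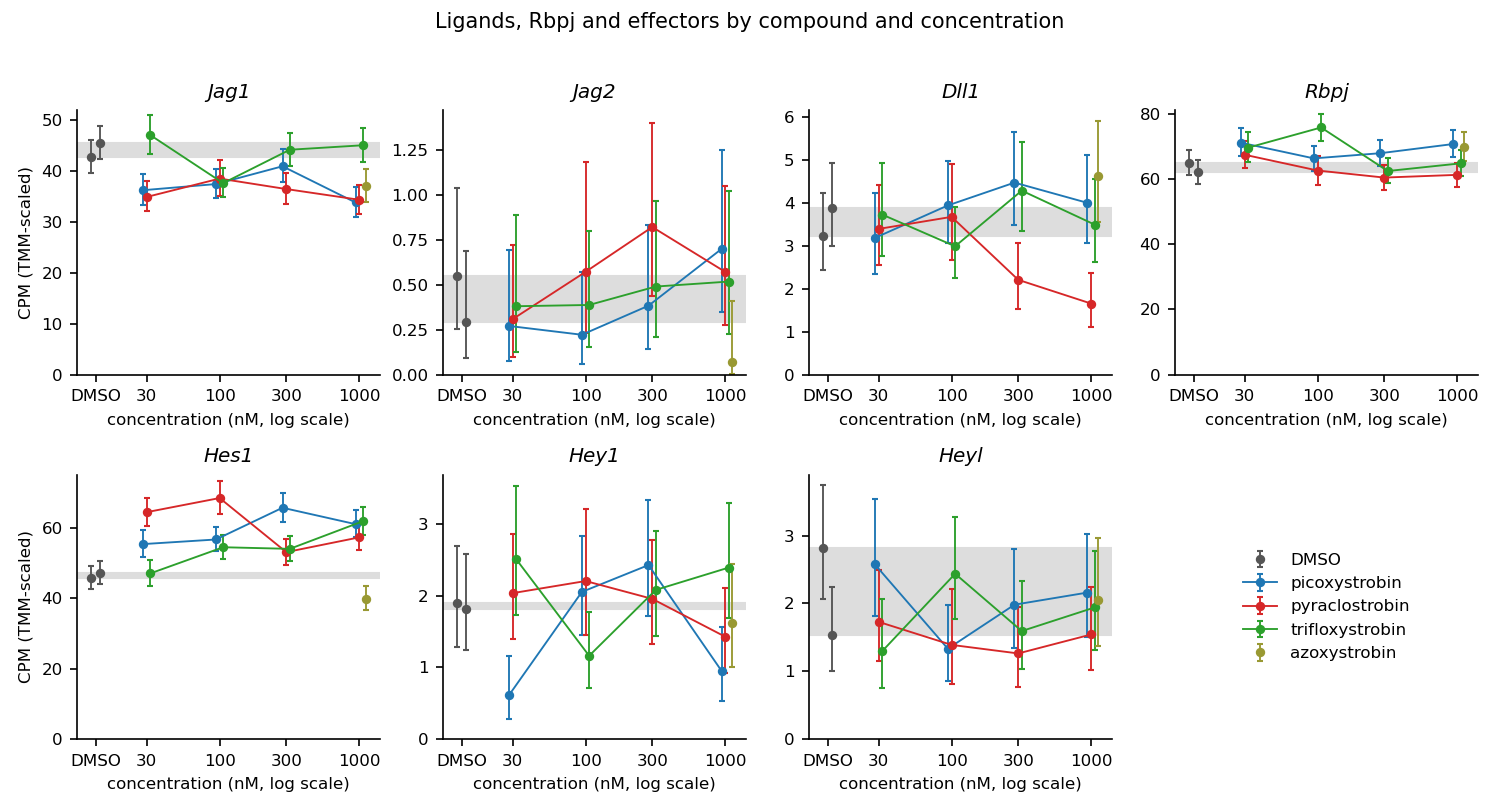
CPM of the 3 ligands, Rbpj and the 3 effectors (vertical axes from 0, a scale for each gene) in each library against concentration in nM (log scale), with DMSO at the left. Points are single libraries, bars are Poisson 95% intervals and the grey band spans the 2 DMSO libraries. Dll1 falls to 2.21 and 1.66 CPM with pyraclostrobin at 300 and 1000 nM, Rbpj stays between 60.4 and 75.8 CPM, and Jag2 is below 1 CPM in every library.

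**Figure D3:**
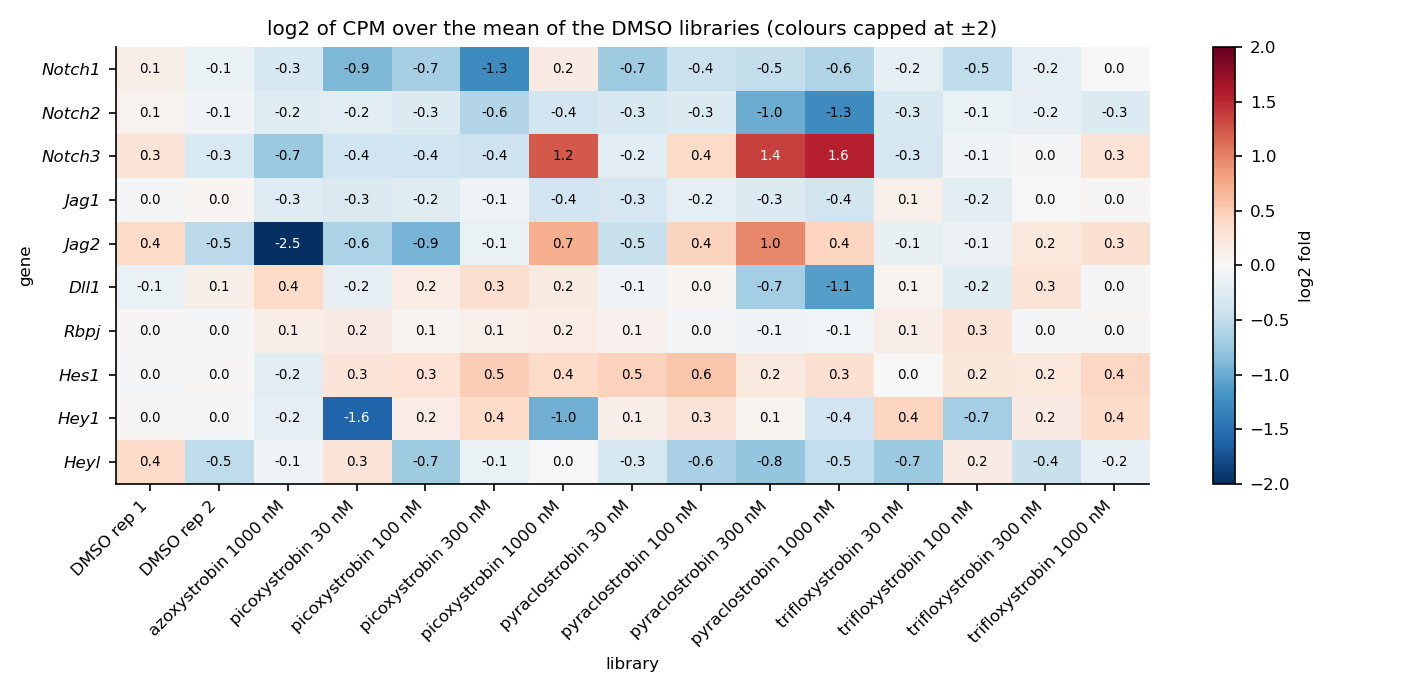
Log2 of the CPM of each gene (rows) in each of the 15 libraries (columns) over the mean of the 2 DMSO libraries, with the value in each cell and colours capped at 2 on either side. Notch3 and Notch2 have the deepest opposite colours in the columns of pyraclostrobin at 300 and 1000 nM, and the deep cells of Jag2 and Hey1 rest on as few as 1 and 9 counts.

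Of the 10 genes, 6 passed the minimum of 10 CPM (Notch1, Notch2, Notch3, Jag1, Rbpj and Hes1) and were tested with edgeR among 9758 genes. The concentrations of a compound stood as its replicates. Nothing states that the DMSO libraries came from separate cultures, and p-values measure only the spread between these libraries. In the comparison of picoxystrobin with DMSO, 0.041% of all tested genes were called at an adjusted p under 0.05, and 0 of the 6 were. DESeq2 also called 0 of the 6, and 2 of the 6 had an unadjusted p under 0.05, Hes1 and Jag1, as did 1870 of all 9758 genes. Hes1 had a log2 difference of 0.36 ± 0.12 (SE) with an edgeR adjusted p of 0.177 and was higher in 4 of 4 libraries. Jag1 had -0.25 ± 0.10 with an edgeR adjusted p of 0.223 and was lower in 4 of 4 libraries. Notch1 had -0.57 ± 0.27 and Notch2 -0.36 ± 0.21, with edgeR adjusted p of 0.261 and 0.341. For Notch3 the difference was 0.20 with an interval of -0.87 to 1.27, and the library at 1000 nM lay apart from the other 3. Without that library Notch1 was lower by -0.92 with an edgeR adjusted p of 0.00368, which passes the threshold, in a fit that called 2660 of all genes, and Notch3 was at -0.41.

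Between the upper and lower concentrations of picoxystrobin, edgeR called 0% of all tested genes and 0 of the 6, and 1 of the 6, Notch3, had an unadjusted p under 0.05, as did 330 of all genes, while DESeq2 also called 0 genes. The Notch3 log2 difference was 1.03 ± 0.41 (SE), with an edgeR adjusted p of 0.967 and an interval of 0.13 to 1.92. This value rests on single libraries. Without the library at 1000 nM it was -0.017, and without that at 300 nM, which leaves the library at 1000 nM alone in the upper band and assumes that it varies like the other groups, it was 1.62 with an edgeR adjusted p of 0.00112. Notch1 behaved alike, with 0.40 ± 0.33 in all libraries, -0.48 without the library at 1000 nM, and 0.94 with an edgeR adjusted p of 0.00183 without that at 300 nM. The fit without the library at 300 nM called 3708 of all genes. When no minimum on CPM was applied, Notch3 passed the threshold in this comparison, with an edgeR adjusted p of 5.51e-06. Its log2 difference was 1.05, and 108 genes were called in that fit. The upper band was still 14.6 CPM at 300 nM and 45.5 CPM at 1000 nM. With the minimum, the similar difference of 1.03 had an unadjusted edgeR p of 0.028, so the call depended on this setting.

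Trifloxystrobin gave no call for any gene, 0% against DMSO and 0% between its upper and lower concentrations, by edgeR and by DESeq2 alike. At an unadjusted p under 0.05, 124 and 128 of all genes passed in these comparisons, and 0 and 1 of the 6. Against DMSO, the log2 difference was -0.026 for Notch3 with an interval of -1.09 to 1.04. For Notch2 it was -0.22 with an interval of -0.67 to 0.22. Both intervals rest on a spread estimated over all groups, pyraclostrobin included. The SD of Notch3 was 3.39 CPM among the trifloxystrobin libraries and 19.5 CPM among those of pyraclostrobin. For Notch2 these SDs were 16.8 and 68.7 CPM. Between concentrations Notch3 had 0.33 ± 0.41 with an interval of -0.56 to 1.23, and Rbpj -0.19 ± 0.088, the one gene with an unadjusted p under 0.05. A p over the threshold does not show that trifloxystrobin left the genes unchanged.

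The 3 pairs of compounds were compared at 4 matched concentrations. Between picoxystrobin and trifloxystrobin, a methoxyacrylate and an oximinoacetate, edgeR called 0% of all genes and 0 of the 6. Of the 6, 1 gene had an unadjusted p under 0.05, Jag1, as did 843 of all genes, and DESeq2 called 12 of all genes and 0 of the 6. Jag1 was lower with picoxystrobin by -0.23 ± 0.098 on the log2 scale, with an edgeR adjusted p of 0.555 and an interval of -0.44 to -0.014. The interval of the difference was -0.86 to 0.048 for Notch1, -0.48 to 0.19 for Notch2, -0.49 to 0.65 for Notch3, -0.16 to 0.20 for Rbpj and -0.11 to 0.38 for Hes1. The Notch1 difference of -0.41 became -0.69 with an edgeR adjusted p of 0.0306 without picoxystrobin at 1000 nM, in a fit that called 1297 of all genes. The other pairs involve pyraclostrobin and were read for other genes of the pathway only, where edgeR called 0.0307% of all genes against trifloxystrobin and 0.0205% against picoxystrobin, and none of the 40 pathway genes below. DESeq2 called 4 and 0 of the 40 in these pairs and 225 and 24 of all genes. Of the 40, 11 and 4 had an unadjusted edgeR p under 0.05, as did 1757 and 1145 of all genes.

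Another 63 genes of the pathway, listed by role, gave the surroundings of the 10, and 40 of them passed the minimum. Of all tested genes, edgeR called 2.12% with pyraclostrobin against DMSO and 7.76% between its upper and lower concentrations. Among the 40 pathway genes 4 were called against DMSO, all lower, and 8 were called between concentrations, 7 lower and 1 higher. That is 10 and 20% of the 40. The lists were chosen with earlier results of these data known, so these shares are a description and not a test of the pathway. The median log2 difference of the 40 was -0.20 against DMSO and -0.13 between concentrations, where the medians of all tested genes were 0.0028 and -0.0017. With picoxystrobin against DMSO 0 of the 40 were called by edgeR, 2 by DESeq2 and 17 at an unadjusted p under 0.05, where 1870 of all 9758 genes were. Without picoxystrobin at 1000 nM edgeR called 20 of the 40, and 2660 of all genes. With picoxystrobin between concentrations, trifloxystrobin in both comparisons, and picoxystrobin against trifloxystrobin 0 of the 40 were called by either tool, and 2, 0, 0 and 8 had an unadjusted edgeR p under 0.05, as did 330, 124, 128 and 843 of all genes. Without picoxystrobin at 300 nM, 18 of the 40 and 3708 of all genes were called between its concentrations, and without that at 1000 nM 9 of the 40 and 1297 of all genes were called against trifloxystrobin.

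Coactivators of the Notch complex held the most calls, 4 of 8 between pyraclostrobin concentrations. Crebbp, the acetyltransferase CBP, was at 300.2 and 266 CPM in DMSO and fell from 192 and 191 CPM at 30 and 100 nM to 127 and 119 CPM at 300 and 1000 nM, by 0.64 ± 0.096 on the log2 scale with an edgeR adjusted p of 0.00677. Ep300, its paralogue p300, fell from 232 and 241 CPM to 174 and 177 CPM. Maml3, a Mastermind protein, fell from 34.1 and 35.2 CPM to 25.5 and 21.7 CPM. Kat2b, the acetyltransferase PCAF, rose from 63.5 and 59.2 CPM to 88.2 and 96.5 CPM, by 0.59 ± 0.14 with an edgeR adjusted p of 0.0295. Kat2b was the only gene of the 40 called higher, and its value with picoxystrobin at 300 nM was also high, 86 CPM. In Crebbp, Ep300 and Maml3, and in Tle2, Lfng and Dtx4, which follow, the upper pyraclostrobin pair was below all other libraries. The remaining coactivators, Maml1, Maml2, Kat2a and Snw1, did not pass the test between concentrations.

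Among corepressors 1 of 10 was called between concentrations. Tle2, a Groucho protein recruited by Hes factors, was at 53.6 and 48.1 CPM in DMSO and fell from 36.6 and 34.8 CPM to 23.2 and 20.4 CPM with pyraclostrobin, by 0.71 ± 0.11 with an edgeR adjusted p of 0.00767. Against DMSO, Tle2 and Spen, a scaffold that holds corepressors on RBPJ, were both called, at -0.83 ± 0.19 and -0.88 ± 0.17 with edgeR adjusted p of 0.0418 and 0.032. The coactivators Crebbp and Maml1 were called in the same comparison, at -0.85 ± 0.16 and -0.54 ± 0.13 with edgeR adjusted p of 0.032 and 0.0491. Crebbp and Tle2 were thus called lower in both comparisons. For every gene called against DMSO, all exposed libraries, azoxystrobin and trifloxystrobin included, were below both DMSO libraries. The highest exposed values were 257 CPM for Crebbp and 46.5 CPM for Tle2, with trifloxystrobin at 100 nM. For Spen and Maml1 they were 86.6 and 68.4 CPM, with trifloxystrobin at 30 nM. The DMSO pair was therefore the high extreme for these genes. Against DMSO the calls were 2 of 8 coactivators and 2 of 10 corepressors. Ctbp1, the corepressor gene with the highest CPM (291), had a difference of 0.071 between concentrations and was not called.

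Of the glycosyltransferases, which modify the receptors and set their response to ligands, 1 of 4 was called between concentrations. It was Lfng (Lunatic fringe), which fell from 80.4 and 74.1 CPM to 57.2 and 49.1 CPM with pyraclostrobin, while picoxystrobin had 58.7 to 69.9 CPM at all concentrations. Poglut1, which adds glucose to the receptors and had the highest CPM of this list (233), had -0.075 ± 0.14 and was not called. Of 7 genes for turnover or inhibition 1 was called, the ubiquitin ligase Dtx4, which fell from 91.9 and 98 CPM to 71.9 and 59.7 CPM. Dtx3, also of the Deltex family and the gene with the highest CPM of that list (105), had -0.28 ± 0.19 and was not called. Of 4 other targets 1 was called, the glial transcription factor Sox9, which fell from 25.3 and 25.5 CPM to 16.9 and 17 CPM, but was also low with picoxystrobin at 30 and 300 nM, at 18 and 16.1 CPM. Ccnd1 (cyclin D1), the target with the highest CPM (383), had 0.30 ± 0.18 and was not called. The edgeR adjusted p of Ep300, Maml3, Lfng, Dtx4 and Sox9 was 0.0399, 0.0168, 0.0303, 0.0182 and 0.0316.

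None of the 6 cleavage genes was called by edgeR with pyraclostrobin, in either comparison, nor was Mib1, the ligase that drives ligand uptake, at 138 CPM. At an unadjusted p under 0.05, 5 of the 6 cleavage genes passed against DMSO and 0 between concentrations, where 2515 and 2352 of all 9758 genes did. Adam10, the protease with the highest CPM (281), had 0.19 ± 0.10 between concentrations. The fourth receptor, Notch4, averaged 2.72 CPM and the ligands Dll3, Dll4, Dlk1 and Dlk2 were below 0.5 CPM, so no other receptor or ligand passed the minimum.

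The calls depended on single libraries. Against DMSO, 0 of the 40 were called without DMSO replicate 1, without DMSO replicate 2, without pyraclostrobin at 300 nM or without that at 1000 nM, 8 were called without that at 30 nM and 11 without that at 100 nM. Between concentrations, 4 were called without the library at 300 nM and 0 without any one of the other 3. Without picoxystrobin at 1000 nM, 13 were called against DMSO and 15 between concentrations, where 1247 and 2498 of all genes were. The 12 calls kept the sign of their difference in all of these fits.

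**Figure D4:**
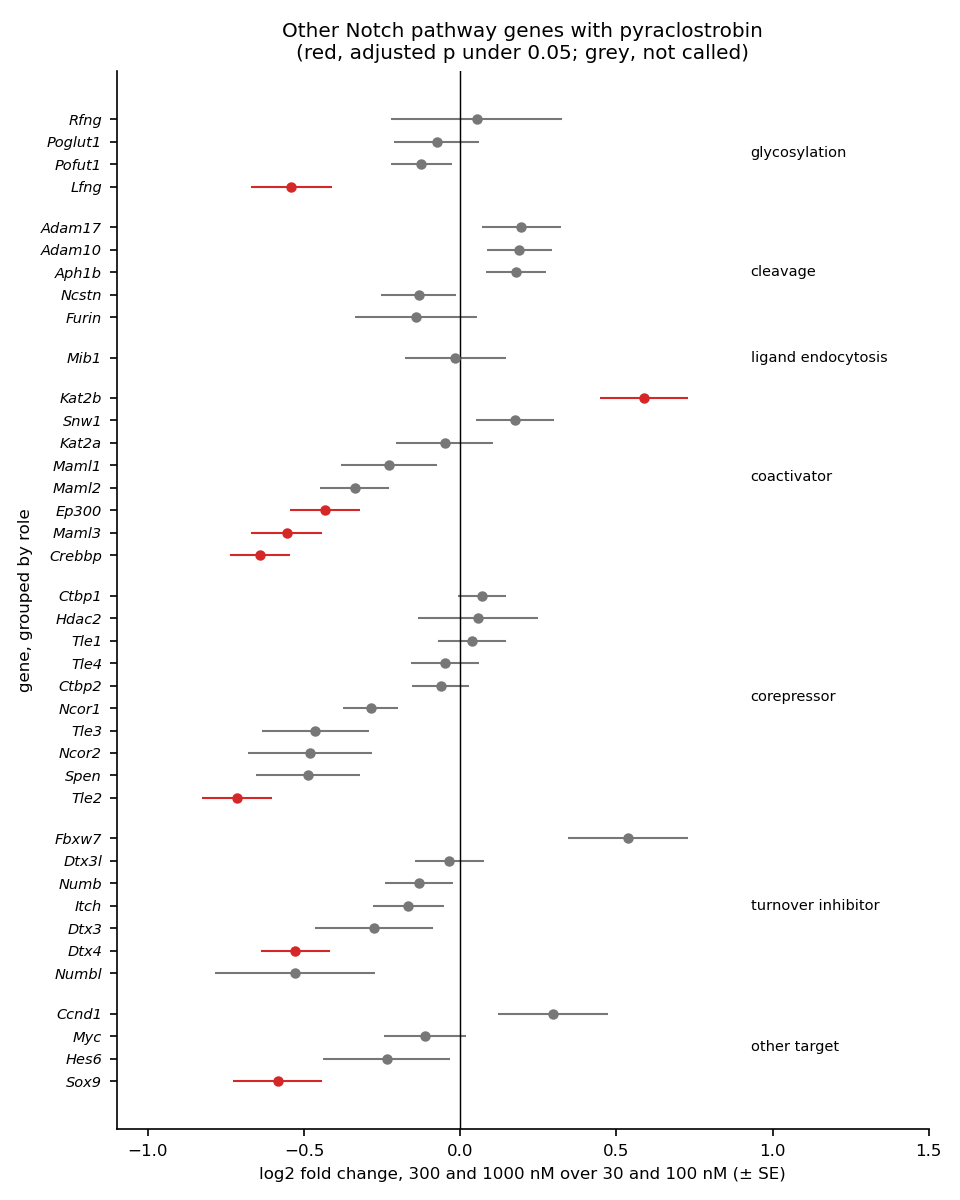
Log2 difference of 39 of the 40 other Notch pathway genes between pyraclostrobin at 300 and 1000 nM and at 30 and 100 nM (horizontal axis), 1 gene per line and grouped by role, with bars of 1 SE. Red points are the 8 genes with an edgeR adjusted p under 0.05, 7 to the left of 0 and Kat2b to the right, with 4 of the 8 among coactivators.

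The genes whose pattern over the 15 libraries was most like that of Notch3 were named by the Pearson correlation of log2 CPM among 9757 other genes. These were Polh, a DNA polymerase that copies past lesions (r = 0.968), Cdkn1a, the cell cycle inhibitor p21 (0.966), Sulf2, an extracellular sulfatase (0.956), Psrc1, a spindle protein (0.956) and Rnf169, a ubiquitin-binding protein (0.956). Spearman's rho was 0.95, 0.939, 0.804, 0.839 and 0.889. The points share compounds and libraries, so this is a description without a p. Without the 2 libraries farthest from the median of Notch3, r was 0.941, 0.921, 0.922, 0.905 and 0.909. Without the 3 libraries highest in Notch3 it was 0.872 for Polh and 0.798 for Cdkn1a over 12 libraries.

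Among the 10 genes themselves, the correlation with Notch3 was -0.684 for Notch2, -0.716 for Dll1, 0.268 for Notch1, -0.4 for Jag1, -0.449 for Rbpj, 0.287 for Hes1, -0.136 for Hey1 and -0.18 for Heyl. Without the 2 libraries farthest from the median the values for Notch2 and Dll1 were 0 and -0.177, and without the 3 highest in Notch3 they were 0.333 and -0.471, so neither held its size. The value for Jag2 was 0.812, and it was 0.833 without the 2 farthest libraries and 0.879 without the 3 highest. Jag2 thus kept its size, but from only 1 to 13 counts per library.

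**Figure D5:**
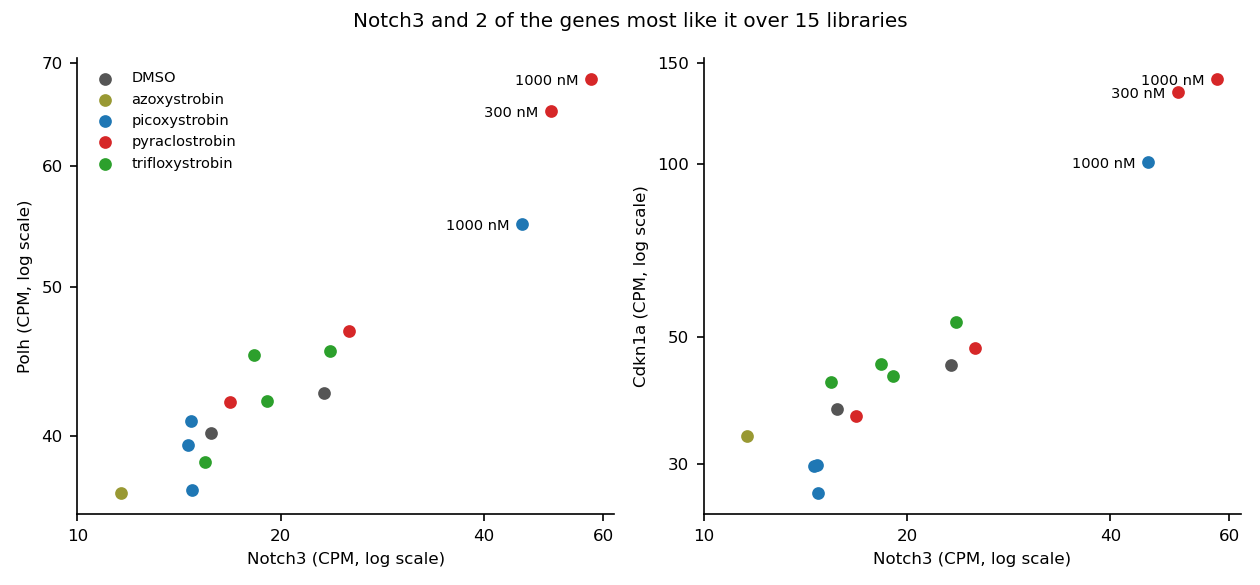
CPM of Polh (left) and Cdkn1a (right) against CPM of Notch3 in the 15 libraries, both axes on a log scale and points coloured by compound. The 3 labelled libraries, pyraclostrobin at 300 and 1000 nM and picoxystrobin at 1000 nM, lie apart from the other 12 at the upper right, with Notch3 at 50.3, 57.6 and 45.5 CPM.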

How the data were processed

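RNA-seq was analysed from 16 deposited tables. Per the labels and the study's methods, the Lexogen SENSE kit was used on total RNA, followed by single-end sequencing and htseq-count. The submitters' processing notes name Bowtie2 2.3.2.2 and mm10; the annotation and the strand setting are not given in the sources used here. The authors deposited raw counts per gene without normalization.

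Tests on counts used edgeR 4.0.16 (quasi-likelihood F test), in R 4.3.3 with TMM factors and two-sided, for the 9758 genes with a mean over 10 CPM, with Benjamini-Hochberg adjustment over all of them and a threshold of 0.05. Compounds were tested against DMSO with 1 level per compound (10 residual degrees of freedom), the upper (300 and 1000 nM) against the lower (30 and 100 nM) concentrations with 1 level per compound and band (7), and compounds against each other in 12 libraries with the concentration as a block (6). Standard errors come from the F statistic, and intervals of log2 differences are 95%. A prior count of 2 was used for log2 values per library. At 12292390 to 18188099 counts per library, counting error matters most for the 4 untested genes.

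The 10 genes and the pathway and marker lists were chosen with earlier results of these data known. Named genes are the 10, pathway genes that were called, the pathway gene with the highest CPM of each role, and the 5 genes most correlated with Notch3. Positions, lengths and GC content come from GENCODE M21 (GRCm38), which held 54092 of 54658 symbols. Alternatives were DESeq2 1.42.0, RLE factors, other minimums, a GC and length offset, all 16 libraries, a concentration slope, no block, and each library left out. The test was checked on simulated counts. Values of 2 genes of the lists are not reported here. Azoxystrobin at 100 nM was left out as a duplicate; azoxystrobin then had 1 library and was not tested.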

Additional observations from a re-analysis of the deposited data

Results flagged for a closer look

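Notch3 with picoxystrobin at 1000 nM was at 45.5 CPM, where the other 3 picoxystrobin libraries were at 14.58 to 14.78 CPM. Its gap to the nearest library was 0.994 of the whole range of the 4, above the 95% critical value of Dixon's test for 4 values. The 10 genes were tested in picoxystrobin and trifloxystrobin, with 4 libraries each and 20 groups in all, of which 1 stood out, and chance alone would mark about 1 in 20. The 4 libraries differ in concentration, so they are not plain replicates.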

How the results depend on the processing

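No paired analysis was possible because only the DMSO libraries carry replicate numbers in the labels, so that libraries could be matched by concentration alone. Counts of all genes called are given in the order picoxystrobin, pyraclostrobin and trifloxystrobin against DMSO, then between their concentrations. DESeq2 called 214, 921, 0, 0, 1153 and 0 genes, no minimum on CPM gave 210, 1195, 0, 108, 1547 and 2, the GC and length offset 0, 194, 0, 0, 1358 and 1, leaving out picoxystrobin at 1000 nM 2660, 1247, 0, 0, 2498 and 0, and all 16 libraries 9, 372, 0, 0, 968 and 0, where edgeR had called 4, 207, 0, 0, 757 and 0. A concentration slope called 289 genes for pyraclostrobin. At matched concentrations, in the order pyraclostrobin against trifloxystrobin, pyraclostrobin against picoxystrobin and picoxystrobin against trifloxystrobin, where 3, 2 and 0 had been called, DESeq2 gave 225, 24 and 12, no minimum 818, 415 and 28, a minimum of 1 CPM 2, 2 and 0, the offset 2, 2 and 0, and no block 1, 2 and 0, and without picoxystrobin at 1000 nM the last 2 gave 3 and 1297. With 1 library left out, counts ranged from 0 to 2660, 0 to 940 and 0 to 0 against DMSO, 0 to 3708, 4 to 340 and 0 to 0 between concentrations, and 0 to 233, 0 to 3 and 0 to 1297 at matched concentrations. The largest of these were without picoxystrobin at 1000 nM (2660 and 1297) and at 300 nM (3708). The causes were not tested.

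Of 30 results for the 6 tested members, 18 kept their sign in every alternative run, and 7 of 390 alternatives brought a call (the fit without picoxystrobin at 1000 nM is counted there also as the fit that leaves out that library), all for Notch1 or Notch3 in comparisons with picoxystrobin. Values that changed sign, none of them called, were, with the offset, 0.12 for Notch3 with trifloxystrobin against DMSO, and 0.025 for Notch2 and -0.058 for Rbpj between picoxystrobin and trifloxystrobin. Without picoxystrobin at 1000 nM they were -0.41 for Notch3 against DMSO, -0.48, -0.017 and -0.017 for Notch1, Notch3 and Rbpj between concentrations, and -0.17 and -0.010 for Notch3 and Rbpj against trifloxystrobin. The slope of Jag1 with picoxystrobin was -0.032. With 1 library left out, Notch3 ranged from -0.41 to 0.51 with picoxystrobin against DMSO and from -0.28 to 0.28 with trifloxystrobin, and Jag1 from -0.066 to 0.042 with trifloxystrobin. Between picoxystrobin concentrations Notch1 ranged from -0.48 to 0.94, Notch3 from -0.017 to 1.62, Jag1 from -0.13 to 0.15 and Rbpj from -0.037 to 0.064, and between trifloxystrobin concentrations Notch2 from -0.082 to 0.098 and Jag1 from -0.077 to 0.25. Between picoxystrobin and trifloxystrobin Notch3 ranged from -0.17 to 0.30 and Rbpj from -0.010 to 0.085. The 12 calls of other pathway genes kept their sign in all alternatives run and passed the threshold in 94 of 148. Their size varied. With pyraclostrobin against DMSO, Spen ranged from -0.97 to -0.47 and Maml1 from -0.60 to -0.32. In the same comparison Crebbp ranged from -0.96 to -0.59 and Tle2 from -0.97 to -0.60. None of 80 group values of the 10 genes in CPM moved by more than the spread between libraries under raw totals or RLE factors.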

Other observations

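Several pathway genes that are broadly expressed in mouse tissue had low counts in every group. The histone deacetylase Hdac1 averaged 3.32 CPM beside 184 CPM for Hdac2. Of the γ-secretase subunits, Aph1a averaged 5.64 CPM and Psenen 0.722 CPM, beside 128.7 CPM for Ncstn. How reads shared with near-identical copies or overlapping genes were counted is not given in the sources used here, and these levels were not tested further.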
